A study of Mus musculus with 24 samples.

Results

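The mitochondrially encoded genes are the 37 genes of the mouse mitochondrial chromosome (chrM of the GRCm38 build): 13 mRNAs, 2 rRNAs and 22 tRNAs. They were chosen as every gene of the GENCODE M21 annotation with a symbol that starts with mt-, and they were matched by Ensembl identifier to the deposited count table. All 37 were found, among 51826 genes in the table. RNA had been taken from the dorsal hippocampus of C57BL/6j mice, 2 to 4 months old and labelled male in all 24 samples, that were either wildtype (WT) or homozygous for point mutations in the KIX domain of the coactivator CBP (CBPKIX/KIX). The mutation is carried by every cell of the animal rather than by hippocampal neurons alone, and the controls are WT littermates. The study's methods name mice of both sexes for its experiments in general, and the labels were followed here. The 24 libraries fell into 7 groups in 2 experiments.

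RNA-Seq 1 held WT homecage, WT Morris water maze (MWM) and CBPKIX/KIX MWM mice, with 3 libraries in each group. MWM is a spatial task in which mice find a hidden platform, and tissue was collected 1 h after training on day 3. These libraries were made from total RNA with the Ribo-Zero gold kit, which removes rRNA with probes. The RNA-Seq 1 counts of mt-Rnr1 and mt-Rnr2 are therefore those left after this step. How much of either rRNA it removed in each library was not tested. RNA-Seq 2 held WT homecage (n = 3), WT contextual fear conditioning (CFC, n = 4), CBPKIX/KIX CFC (n = 4) and CBPKIX/KIX homecage mice (n = 4), with CFC a 1-day task and tissue again taken 1 h after it. The study's methods describe the homecage and CFC libraries as polyA-selected, made in another sequencing core. The methods name a stranded kit for RNA-Seq 1 but not for RNA-Seq 2, and the read length differed as well. The library type, the kit, the read length, the sequencing core and the task changed together. They cannot be told apart, and the experiments were analysed separately.

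Libraries held 38174044 to 65709282 counts in RNA-Seq 1 and 15385836 to 46056290 in RNA-Seq 2. Levels are given as CPM, the usual depth-scaled count, here after scaling each library by its upper quartile. A count of 3 in a library was equal to 0.0457 to 0.0786 CPM in RNA-Seq 1 libraries and to 0.0651 to 0.195 CPM in those of RNA-Seq 2. Crebbp, the gene for CBP, was at 137 to 212 CPM in the former and at 65.2 to 78.0 CPM in the latter, in mutant and WT libraries alike. Its count is no check of the genotype labels, because point mutations leave the mRNA in place. The markers of hippocampal excitatory neurons were present in every library, with a summed level in RNA-Seq 1 of 4380 to 7197 CPM and in RNA-Seq 2 of 6095 to 7386 CPM. The 15 choroid plexus markers summed in RNA-Seq 1 to 128 to 2554 CPM and in RNA-Seq 2 to 38.8 to 4858 CPM, so that tissue was present in uneven amounts. In bulk tissue, fewer cells of a type and less RNA per cell cannot be told apart.

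Mitochondrial DNA is a small circle that is transcribed from both strands into long precursor RNAs. In these precursors the tRNAs lie between most of the mRNAs and rRNAs and are cut out, which releases the neighbouring RNAs. The mRNAs encode subunits of respiratory complex I (mt-Nd1 to mt-Nd6 and mt-Nd4l), complex III (mt-Cytb), complex IV (mt-Co1 to mt-Co3) and ATP synthase (mt-Atp6 and mt-Atp8), while the rRNAs mt-Rnr1 and mt-Rnr2 form the core of the mitochondrial ribosome. Neurons depend heavily on oxidative phosphorylation, and pieces of mitochondrial DNA have also been copied into the nuclear chromosomes during evolution. Of the 37 genes, 28 were annotated on the plus strand and 9 on the minus strand, namely mt-Nd6 and 8 tRNAs. Neighbours overlapped for 16 of the 37 genes. The sources used here do not say whether reads were counted by strand, and without strand the RNA of a gene and that of the opposite strand cannot be told apart.

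Much of the sequence of these genes was also present in the nuclear genome. A blastn search of the annotated transcripts (at least 95% identity over at least 100 bases) found 11 nuclear genes that matched 9 of the 37 genes. The 7 copies Gm29216, Gm28661, Gm10925, Gm28437, Gm28438, Gm10222 and Gm28439 lie in the same order on chromosome 1 from base 24611535 to base 24616197, and they correspond to the stretch of chrM from base 6390 to base 11042. This stretch holds 6 mRNAs wholly (mt-Co2, mt-Atp8, mt-Atp6, mt-Co3, mt-Nd3 and mt-Nd4l) and 5 tRNAs, and it covers parts of mt-Co1 and mt-Nd4. Gm28661 (chr1:24614885-24615565, minus strand, annotated as an unprocessed pseudogene) was identical to mt-Co2 (ENSMUSG00000064354.1, chrM:7013-7696, plus strand) over 681 bases. A less similar copy of mt-Co2, Gm13341 (chr2:22587291-22587962, minus strand), differed from it at 16 of 672 aligned bases. Those of the 684 bases of mt-Co2 that had no partner in Gm13341 are not counted in this. Gm28438 (chr1:24612775-24613119, minus strand) differed from mt-Nd3 (ENSMUSG00000064360.1, chrM:9459-9806, plus strand) at 1 base. The first 80 bases of these genes are shown because they let a reader see how little separates a mitochondrial read from a nuclear one. In the mt-Co2 set, capitals mark the bases at which mt-Co2 and Gm13341 differ, and Gm28661, all in lower case, has the same letters as mt-Co2. In the mt-Nd3 set, they mark the base at which mt-Nd3 and Gm28438 differ.
mt-Co2: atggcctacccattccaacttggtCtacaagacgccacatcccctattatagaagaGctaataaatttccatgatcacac
Gm28661: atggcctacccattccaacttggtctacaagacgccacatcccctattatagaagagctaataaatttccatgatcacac
Gm13341: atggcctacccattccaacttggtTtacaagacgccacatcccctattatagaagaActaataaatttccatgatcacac
mt-Nd3: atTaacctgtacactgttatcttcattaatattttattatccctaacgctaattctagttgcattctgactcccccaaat
Gm28438: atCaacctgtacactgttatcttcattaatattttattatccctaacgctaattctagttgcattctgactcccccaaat

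Every window of 50 bases in mt-Co2 was found again, letter for letter, in an annotated nuclear transcript. This share was 99.9% for mt-Co3, 99.5% for mt-Atp6, 98.8% for mt-Nd4l and 98.0% for mt-Nd3. It fell to 62.2% for mt-Nd4 and 51.1% for mt-Co1, and it was 8.2% or less for the other 8 of the 15 mRNAs and rRNAs. mt-Atp8 lies inside the stretch but had no such window. Its last 43 bases are shared with mt-Atp6 and so match Gm10925, but they are shorter than a window of 50 bases. For the rest of mt-Atp8 the search found no annotated nuclear transcript, and unannotated nuclear sequence was not searched. How the counting treated reads that align equally well to several places is not given in the sources used here.

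Mitochondrially encoded genes took a larger share of the counts in the polyA libraries than in the Ribo-Zero libraries. In RNA-Seq 1 their share was 1.36%, 1.38% and 1.99% in the WT homecage libraries, 1.94%, 1.74% and 2.08% in the WT MWM libraries, and 1.95%, 2.25% and 2.02% in the CBPKIX/KIX MWM libraries. The WT homecage libraries 1 and 2 lay below all the others, while homecage library 3 lay within the range of the trained libraries. The group means were 1.58% ± 0.360 (SD, n = 3), 1.92% ± 0.171 (SD, n = 3) and 2.07% ± 0.155 (SD, n = 3). The WT MWM mean was thus 0.341 percentage points above the WT homecage mean, with a pooled SD of 0.282 percentage points.

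In RNA-Seq 2 the share was 4.81%, 5.07% and 5.16% in WT homecage libraries and 4.84%, 4.81%, 5.18% and 5.43% after CFC in WT mice. It was 4.81%, 5.003%, 5.35% and 5.38% in CBPKIX/KIX CFC libraries and 5.03%, 5.35%, 5.46% and 5.28% in CBPKIX/KIX homecage libraries. All 4 groups overlapped, and the group means differed by at most 0.269 percentage points (CBPKIX/KIX homecage against WT homecage, pooled SD 0.181). The 95% Wilson interval of a single library's share was at most 0.0221 percentage points wide and covers counting error only, so the spread between libraries was far larger than the counting error.

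**Figure D1:**
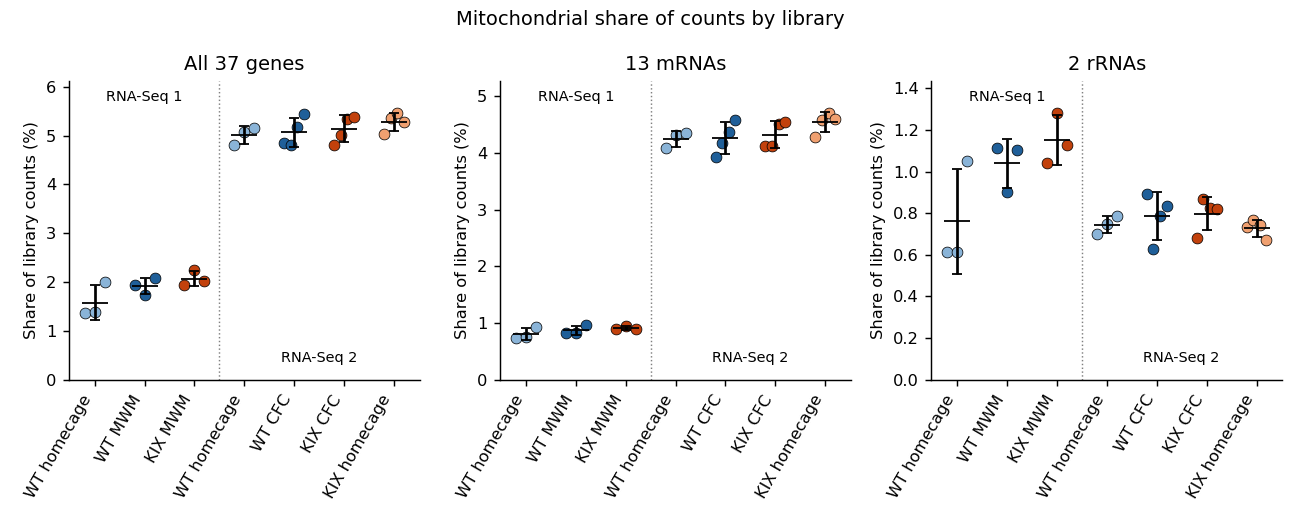
Percent of all counts (y axis) that fell on all 37 mitochondrially encoded genes, on the 13 mRNAs and on the 2 rRNAs in each library, by group (KIX stands for CBPKIX/KIX), with 1 point per library and bars for the group mean and SD. For all 37 genes, RNA-Seq 1 libraries sit between 1.36% and 2.25% and RNA-Seq 2 libraries between 4.81% and 5.46%.

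The kinds of RNA behind the share differed between the experiments. In RNA-Seq 1 the rRNAs took 0.615% to 1.28% of all counts and the mRNAs 0.733% to 0.965%. In RNA-Seq 2 the mRNAs took 3.93% to 4.70% and the rRNAs 0.627% to 0.894%. The tRNAs never exceeded 0.0171% of a library. The rRNA share in RNA-Seq 1 averaged 0.761% in WT homecage, 1.04% in WT MWM and 1.15% in CBPKIX/KIX MWM libraries, whereas the mRNA share averaged 0.806%, 0.871% and 0.913%. A single mRNA, mt-Co1, the catalytic subunit of complex IV, held 56.7% to 72.8% of the mitochondrial mRNA counts in RNA-Seq 1 and 38.7% to 40.1% in RNA-Seq 2. Likewise mt-Rnr2, the large-subunit rRNA, held 91.2% to 93.1% of the mitochondrial rRNA counts in RNA-Seq 1 but only 60.9% to 64.9% in RNA-Seq 2.

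Levels were compared between genes per length, as CPM per kilobase in the WT homecage libraries, the group that both experiments share. In RNA-Seq 1 mt-Rnr2 led with 3922, 3911 and 5758 CPM per kilobase in the 3 libraries. It was followed by mt-Co1 with 3071, 3046 and 3797 and by mt-Nd1, a core subunit of complex I, with 1427, 1402 and 1102. The library values of these first 3 genes did not overlap with one another. After them came mt-Cytb, the sole mitochondrially encoded subunit of complex III (mean 772), and mt-Rnr1, the small-subunit rRNA (mean 647), whose library values overlapped. mt-Nd2, mt-Nd4, mt-Co2, mt-Nd5 and mt-Co3 followed with means of 245, 232, 186, 133 and 101 CPM per kilobase, and each of them overlapped with its neighbour in that order. The lowest were mt-Nd6 at 56.6, mt-Nd3 at 49.6, mt-Atp6 at 43.2, mt-Atp8 at 33.98 and mt-Nd4l at 4.04 CPM per kilobase, of which mt-Nd6 and mt-Nd3 overlapped.

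In RNA-Seq 2 mt-Co1 was the highest gene, with 10596, 11044 and 11134 CPM per kilobase in the 3 WT homecage libraries. mt-Cytb was next with 5978, 6428 and 6312, and mt-Nd1 had 5297, 5448 and 5483. These 3 genes and mt-Nd2 (mean 3877) did not overlap with their neighbours. mt-Rnr1, mt-Rnr2 and mt-Nd6 lay together, with overlapping library values and means of 2949, 2929 and 2903 CPM per kilobase, and mt-Nd4 (2442) overlapped with mt-Nd5 (2398). Below mt-Nd5 the level dropped sharply. mt-Nd3 was at 80.9, 68.6 and 73.1, and the other 5 genes were at 13.6 CPM per kilobase or less in each library. The 6 genes at the bottom of this order were the 6 mRNAs that lie wholly inside the stretch copied on chromosome 1.

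The order of the genes therefore differed between the experiments. This is given as a description because library type cannot be told apart from kit, read length, run and core. By their mean levels in the WT homecage groups, mt-Nd6 was 51.3-fold higher in RNA-Seq 2 than in RNA-Seq 1. The corresponding factor was 18.0 for mt-Nd5, 15.8 for mt-Nd2, 10.53 for mt-Nd4, 8.08 for mt-Cytb, 4.13 for mt-Nd1 and 3.31 for mt-Co1. mt-Nd6 is the only mRNA on the minus strand, and a stranded kit is named for RNA-Seq 1 alone. The part of strand in its factor was not tested. In the opposite direction, mt-Co2 was 24.4-fold, mt-Co3 14.1-fold, mt-Atp8 12.05-fold and mt-Atp6 5.93-fold higher in RNA-Seq 1. Of the rRNAs, mt-Rnr1 was 4.56-fold higher in RNA-Seq 2, and mt-Rnr2 was 1.55-fold higher in RNA-Seq 1. All 4 mRNAs that were more than 5-fold higher in RNA-Seq 1 lie inside the stretch, and the part that the nuclear copies play in these levels was not tested.

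**Figure D2:**
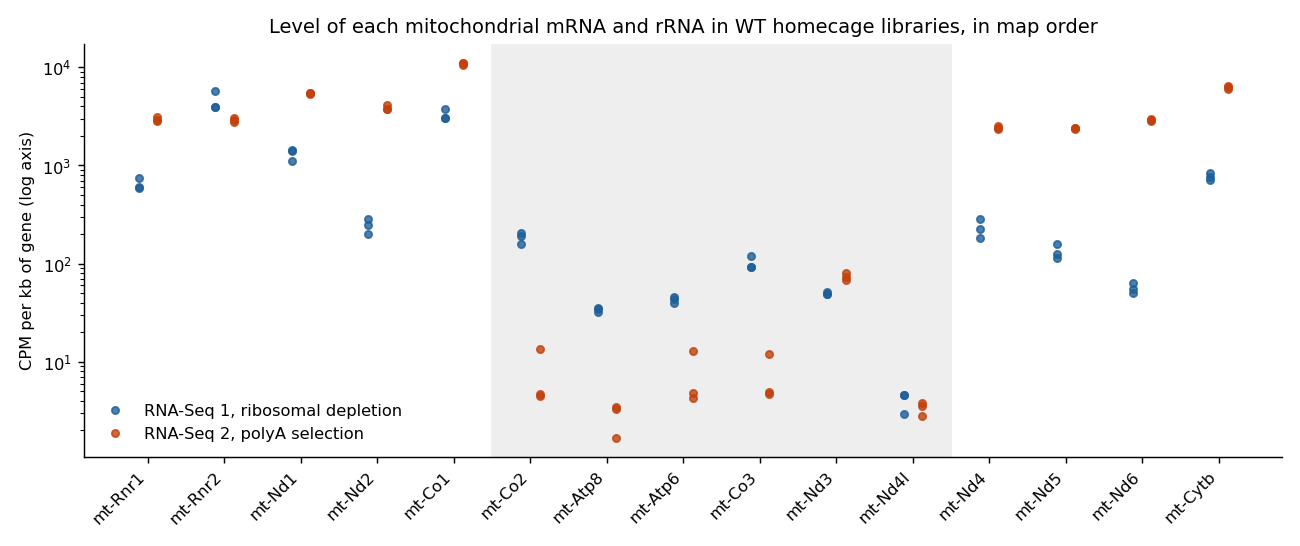
Level of the 13 mRNAs and 2 rRNAs in CPM per kilobase (log axis) in the WT homecage libraries of each experiment, with genes in chromosome order, 1 point per library and a grey band over the 6 mRNAs wholly inside the stretch copied on chromosome 1. In RNA-Seq 2 the genes in the band lie at 80.9 CPM per kilobase or below, and all others lie far above them, at 2343 or more.

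Several mRNAs inside the stretch also varied widely among the RNA-Seq 2 libraries. Across the 15 libraries, the SD of log2 CPM within groups was 0.891 for mt-Atp6 and 0.780 for mt-Co2, larger than for 99.5% and 99.2% of the genes tested. For mt-Co1 it was 0.0589, and only 6.38% of genes had a smaller SD. The spread followed the replicate number. mt-Atp6, the proton-channel subunit of ATP synthase, was at 2.93, 3.26 and 8.67 CPM in WT homecage libraries 1 to 3. It was at 3.60, 3.15, 9.99 and 10.8 CPM in WT CFC libraries 1 to 4, at 2.85, 2.97, 10.05 and 11.6 CPM in CBPKIX/KIX CFC libraries 1 to 4, and at 3.25, 3.47, 9.91 and 10.9 CPM in CBPKIX/KIX homecage libraries 1 to 4. In each group, the libraries numbered 1 and 2 were low and those numbered 3 and 4 were high.

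This look at the replicate numbers was added after the data had been seen and is given as a description. The 8 libraries numbered 1 or 2 held 30143949 to 46056290 counts and the 7 numbered 3 or 4 held 15385836 to 20568337. mt-Co2 was at 2.75 to 4.65 CPM in the former and at 7.52 to 10.02 CPM in the latter, and mt-Co3 at 2.27 to 4.41 and 8.59 to 10.6 CPM. mt-Atp8, the short accessory subunit of ATP synthase, was at 0.195 to 0.673 and 0.706 to 1.09 CPM. Thus, in CPM, 4 of the 6 mRNAs inside the stretch had libraries that did not overlap between these sets. This was so for 1 of the 7 other mRNAs (mt-Nd6, 1365 to 1501 and 1536 to 1721 CPM) and 2.78% of all 18851 genes tested. Of the other genes inside the stretch, mt-Nd3 and mt-Nd4l overlapped between the sets. In raw counts, before scaling for depth, mt-Co2 (103 to 151 and 140 to 170) and mt-Atp6 (107 to 159 and 134 to 206) overlapped too. The share of mRNA counts held by mt-Co1 stayed within 38.7% to 40.1% in all 15 libraries.

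Most of the nuclear copies also lay apart between these sets. Gm28661, the copy of mt-Co2, was at 1.68 to 2.42 CPM in the libraries numbered 1 or 2 and at 5.82 to 7.22 CPM in the others. Gm10925, the copy of mt-Atp6, was at 2.38 to 3.23 and 6.99 to 9.99 CPM, and Gm28437, the copy of mt-Co3, at 1.99 to 2.597 and 6.14 to 8.31 CPM. In all, 6 of the 7 copies on chromosome 1 did not overlap between the sets. The chromosome 2 copies Gm13340 (6.56 to 9.36 and 10.2 to 13.8 CPM) and Gm13341 (3.71 to 5.02 and 5.71 to 6.86 CPM) did not overlap either. For mt-Co1, mt-Nd4 and mt-Nd4l, the copies lay apart while the mitochondrial gene itself overlapped. Within a library, the count of Gm10925 was 0.755 to 1.02 times that of mt-Atp6 in RNA-Seq 2 and 1.31 to 1.66 times that of mt-Atp6 in RNA-Seq 1. The same ratio was 0.522 to 0.807 in RNA-Seq 2 and 0.631 to 0.784 in RNA-Seq 1 for Gm28661 and mt-Co2, and 0.573 to 0.988 and 0.72 to 0.834 for Gm28437 and mt-Co3. For mt-Co2, mt-Atp6 and mt-Co3, the counts of a copy and of its gene were thus of similar size. Gm28438 held 0.00974 to 0.0346 times the count of mt-Nd3 in RNA-Seq 2 and 0.355 to 0.473 times in RNA-Seq 1, and Gm10222 held 0.103 to 1.39 and 0.427 to 0.692 times the count of mt-Nd4l. By their shared sequence, the values of all 5 genes are uncertain as measures of mitochondrial RNA. For mt-Co1, the copy Gm13340 held at most 0.0497 times the count of the gene. This low ratio does not show that mt-Co1 is unaffected, because the treatment of reads that align to several places is not known. Of the windows of mt-Co1 and mt-Nd4, 51.1% and 62.2% were found again in nuclear transcripts. How far this affects the values of these genes was not tested.

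**Figure D3:**
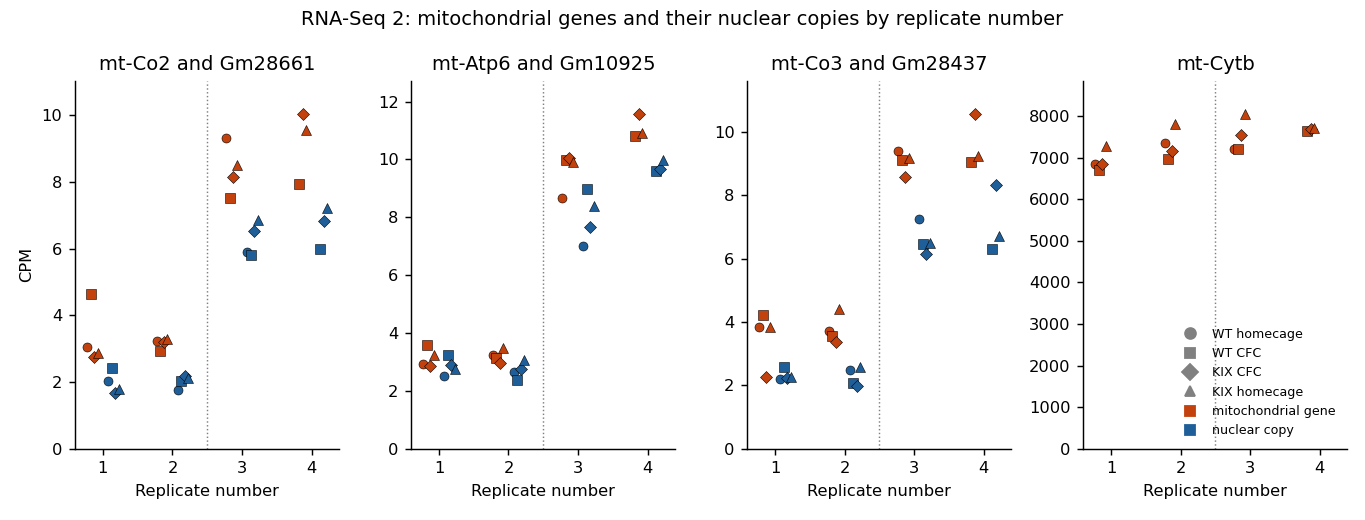
CPM (y axis, linear from 0) of mt-Co2, mt-Atp6 and mt-Co3 beside their nuclear copies Gm28661, Gm10925 and Gm28437, and of mt-Cytb, in the 15 RNA-Seq 2 libraries by replicate number, 1 point per library. Libraries numbered 1 or 2 lie below those numbered 3 or 4 for each of the 3 genes and its copy. mt-Cytb, for which no annotated copy was found, lies between 6702 and 8040 CPM. Its libraries overlap between these sets, with medians of 7064 and 7640 CPM.

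The tRNAs gave few counts, and in RNA-Seq 1 a few of them held nearly all of these counts. The tRNA genes are 59 to 75 bases long, shorter than the reads named in the study's methods. Mature tRNAs and longer RNAs that reach into these genes cannot be told apart, so the counts are no direct measure of mature tRNA. The 3 with the most counts in both experiments were mt-Tn, mt-Tc and mt-Tp, which carry asparagine, cysteine and proline. All 3 are annotated on the minus strand, mt-Tn at chrM:5089-5159, mt-Tc at chrM:5192-5257 and mt-Tp at chrM:15356-15422. The 32 bases between mt-Tn and mt-Tc hold the origin at which replication of the second DNA strand starts. Their sequences are shown because most of the tRNA signal comes from them, with the anticodon in capitals.
mt-Tn: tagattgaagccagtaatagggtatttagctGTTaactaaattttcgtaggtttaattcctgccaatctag
mt-Tc: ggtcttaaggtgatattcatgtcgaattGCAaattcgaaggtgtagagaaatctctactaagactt
mt-Tp: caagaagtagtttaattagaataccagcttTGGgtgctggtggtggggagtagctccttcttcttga

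In RNA-Seq 1 mt-Tn had 1875 to 3265 counts per library, or 44.97% of all tRNA counts, and mt-Tc had 1587 to 3137, or 42.6%. mt-Tp followed with 412 to 879 counts (10.49%), mt-Ty, which carries tyrosine, with 29 to 80, and mt-Th, which carries histidine, with 0 to 24. In RNA-Seq 2 the signal was spread more widely. mt-Tp led with 866 to 2505 counts (36.4%), ahead of mt-Tn with 378 to 1246 (17.5%), mt-Tc with 265 to 768 (11.8%), mt-Te, which carries glutamate, with 228 to 714 (9.89%) and mt-Ty with 73 to 279. In both experiments, the 4 tRNAs with the most counts were on the minus strand. At the other end, mt-Ts1, mt-Td and mt-Tk had no counts in the 9 libraries of RNA-Seq 1, and mt-Tv had none there either. In RNA-Seq 2 mt-Td and mt-Tk were again at 0 in all 15 libraries, and mt-Ts1 had 2 counts in 1 library. mt-Ts1, mt-Td and mt-Tk lie inside the stretch copied on chromosome 1. The floor of 3 counts given above equals 0.0457 to 0.195 CPM, depending on the library, and a level below it rests on fewer than 3 counts.

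Each comparison between groups was tested with edgeR's quasi-likelihood test over all genes of an experiment, with Benjamini-Hochberg adjustment. The filter on low counts kept 24 of the 37 genes in RNA-Seq 1, among them all 13 mRNAs and both rRNAs, and 32 of 37 in RNA-Seq 2. No mitochondrially encoded gene reached an adjusted p under 0.05 in any of the 6 comparisons, and the values below describe how the genes lay. Several comparisons share a group, so their values are not independent of one another. Many of the mitochondrially encoded genes are also cut from the same precursors. The number of genes in a direction is therefore not a number of independent results. Shares of all genes are those of edgeR. Counts at an unadjusted p under 0.05 by DESeq2, a second tool, stand without that tool's own share. Whether they exceed it cannot be read from them.

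The question of MWM training in WT mice was addressed by WT MWM against WT homecage in RNA-Seq 1. The rRNAs lay higher after training and most mRNAs and the leading tRNAs lay lower, but none of these differences passed the test. For the rRNAs, these are counts left after rRNA removal, and RNA level and removal cannot be told apart. After GC-content normalization the rRNAs no longer shared a direction, with mt-Rnr1 at 0.08 and mt-Rnr2 at -0.14 on the log2 scale. That normalization goes by rank within a GC bin, so for very high counts its values depend on other genes too. At an adjusted p under 0.05, edgeR called 0 of the 24 genes tested, against 0.0135% of all 22276 genes, and 5 had an unadjusted p under 0.05, against 10.9% of all genes. DESeq2 called 1 of them and also gave 5 at an unadjusted p under 0.05. Groups did not overlap for 3 of the 24 genes (mt-Rnr1, mt-Tl2 and mt-Tw), against 13.4% of all genes.

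mt-Rnr1 (ENSMUSG00000064337.1, chrM:70-1024) was at 566, 577 and 710 CPM in WT homecage libraries and at 853, 803 and 775 CPM after MWM. The groups did not overlap, with homecage library 3 nearest to the trained libraries. The log2 fold change was 0.39 (SE 0.11), a 1.31-fold higher level, with an unadjusted p of 0.0044 and an adjusted p of 0.303 by edgeR. After GC-content normalization it was 0.08 (SE 0.10, adjusted p = 0.792 by edgeR). With DESeq2 it was 0.46 with an adjusted p of 0.0107, a call that edgeR did not make, and DESeq2 called 76 of all genes where edgeR called 3. Without WT homecage library 3, the edgeR test called 4 mitochondrially encoded genes, mt-Rnr1 among them (log2 fold change 0.50, adjusted p = 0.00825), and it called 2418 of all genes.

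mt-Rnr2 had a wider spread. It was at 6205, 6188 and 9109 CPM in WT homecage libraries and at 10197, 8344 and 9927 CPM after MWM, so library 3 of the homecage group lay above library 2 of the trained group. Its log2 fold change was 0.40 (SE 0.18, adjusted p = 0.434 by edgeR), and it turned to -0.14 after GC-content normalization.

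Among the genes that lay lower after MWM, mt-Tc had the lowest p. It was at 64.6, 54.4 and 46.9 CPM in WT homecage libraries and at 33.0, 36.1 and 50.7 CPM after MWM. WT MWM library 3 lay within the homecage range, and the groups overlapped. The log2 fold change was -0.47 (SE 0.15, adjusted p = 0.321 by edgeR), and without WT homecage library 3 it was -0.58 with an adjusted p of 0.0282. mt-Tn and mt-Nd6, both also on the minus strand, had log2 fold changes of -0.36 and -0.33 (adjusted p = 0.365 and 0.452 by edgeR).

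Of the 13 mRNAs, 11 had a log2 fold change below 0, with a median of -0.15 beside a median of -0.07 over all genes, of which 39% lay above 0. The number below 0 was 11 with TMM and with DESeq2 scaling, 12 after GC-content normalization and 9 with total counts only. This direction rested on 1 library. WT MWM library 1 had the lowest level of all RNA-Seq 1 libraries for 10 of the 13 mRNAs, for example mt-Nd2 at 126 CPM where the other 8 libraries were at 207 to 297 CPM. Without it, 8 of 13 mRNAs lay above 0 and the median was 0.02. The same library had the highest mt-Rnr1 level of the experiment and, at 10197 CPM, the second highest mt-Rnr2 level. mt-Nd2 had a within-group SD larger than 97.9% of all genes tested in RNA-Seq 1.

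**Figure D4:**
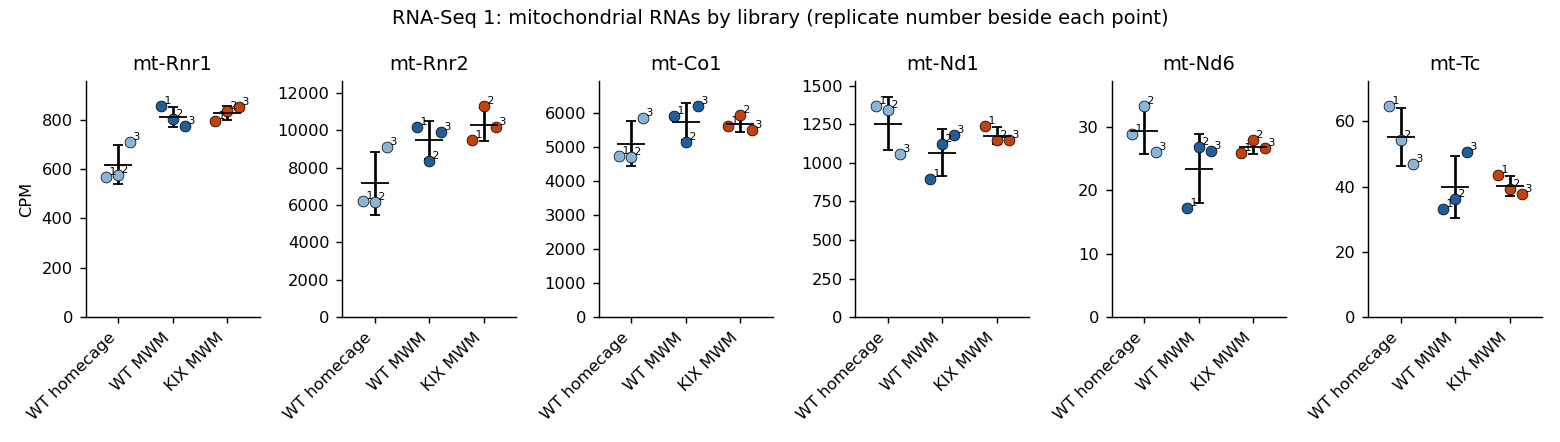
CPM (y axis) of 2 rRNAs, 3 mRNAs and mt-Tc in the 9 RNA-Seq 1 libraries by group, with 1 numbered point per library and bars for the group mean and SD. For mt-Rnr1 the WT homecage libraries lie at 566 to 710 CPM, below all 6 trained libraries at 775 to 853 CPM.

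Other measures moved with the WT homecage libraries of RNA-Seq 1. Homecage libraries 1 and 2 had summed choroid plexus markers of 128 and 141 CPM and library 3 of 1586 CPM, while the trained libraries spanned 175 to 2554 CPM. The excitatory neuron markers summed to 6869 and 7197 CPM in homecage libraries 1 and 2 and to 4380 CPM in library 3, against 5119 to 6238 CPM in the WT MWM libraries. The nuclear-retained and small structured RNAs summed to 119300, 105250 and 73469 CPM in the 3 homecage libraries and to 77128 to 89842 CPM in the trained libraries of both genotypes. The upper-quartile factors of homecage libraries 1 and 2 were 0.908 and 0.911, and those of the other 7 libraries were 0.988 to 1.07. The part of these differences in the mitochondrial values was not tested.

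CBPKIX/KIX MWM against WT MWM addressed the mutation after spatial training. At an adjusted p under 0.05 there were 0 of the 24 genes tested (0% of all 22276 genes) and 0 had an unadjusted p under 0.05 (5.77% of all genes) with edgeR, and DESeq2 gave 0 by both thresholds. The rRNAs overlapped, with mt-Rnr1 at 795, 835 and 849 CPM and mt-Rnr2 at 9496, 11293 and 10166 CPM in the mutant libraries. mt-Tp was at 14.4, 9.43 and 11.2 CPM in WT and at 10.04, 10.2 and 7.12 CPM in CBPKIX/KIX libraries, with a log2 fold change of -0.36 (SE 0.19, adjusted p = 0.813 by edgeR). In the other direction, mt-Nd6 had a log2 fold change of 0.19 (SE 0.15, adjusted p = 0.813 by edgeR). Only mt-Tw, at 7 to 15 counts per library, had groups that did not overlap, against 17.2% of all genes.

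Of the mRNAs, 11 of 13 lay above 0 with a median log2 fold change of 0.14, where 45.9% of all genes lay above 0. This number was 12 with TMM and with total counts, 11 with DESeq2 and 9 after GC-content normalization. Here again WT MWM library 1 decided the direction, since 6 of 13 mRNAs lay above 0 without it.

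CFC in WT mice was addressed by WT CFC against WT homecage in RNA-Seq 2. Of the 32 genes tested, edgeR and DESeq2 each called 0 at an adjusted p under 0.05 (0% of all 18851 genes with edgeR), and both tools gave 2 at an unadjusted p under 0.05, against 2.39% of all genes with edgeR. They were mt-Tl1 and mt-Tn. mt-Tl1, which carries leucine and follows mt-Rnr2 on the chromosome (chrM:2676-2750), was at 6.27, 4.53 and 6.67 CPM in WT homecage libraries and at 3.94, 3.60, 5.05 and 4.44 CPM after CFC. The groups overlapped because homecage library 2 lay low. The log2 fold change was -0.45 (SE 0.15, unadjusted p = 0.0106, adjusted p = 1.00 by edgeR), and for mt-Tq, in the other direction, it was 0.30 (SE 0.25).

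The 7 mRNAs outside the stretch differed little, with log2 fold changes between -0.01 and 0.02 and SEs of 0.05 to 0.08. mt-Cytb, for example, was at 6839, 7354 and 7221 CPM in WT homecage libraries and at 6702, 6975, 7215 and 7640 CPM after CFC, with full overlap. Inside the stretch mt-Atp6 had a log2 fold change of 0.51 with an SE of 0.64. When the replicate classes (1 and 2 against 3 and 4) were entered as a block, it was 0.16 with an SE of 0.11, since the WT homecage group holds 2 libraries of the first class and 1 of the other. Groups overlapped for all 32 genes, where 5.34% of all genes did not overlap, and 8 of 13 mRNAs lay above 0 (47% of all genes), or 4 of 13 with that block.

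CFC in the mutant was addressed by CBPKIX/KIX CFC against CBPKIX/KIX homecage. Again 0 of 32 genes had an adjusted p under 0.05 with edgeR (0% of all genes), while 4 had an unadjusted p under 0.05 (13% of all genes). DESeq2 called 1 gene and gave 6 at an unadjusted p under 0.05. The 4 genes were the tRNAs mt-Tl1, mt-Tn, mt-Ta and mt-Te, all lower after CFC. mt-Tl1 was at 6.09, 6.00, 8.08 and 7.60 CPM in CBPKIX/KIX homecage libraries and at 4.4, 4.6, 4.78 and 4.66 CPM after CFC. Each trained library lay below each homecage library, and mt-Tl1 was the only mitochondrially encoded gene without overlap between the groups, against 4.91% of all genes.

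The log2 fold change of mt-Tl1 was -0.58 (SE 0.14), a 0.668-fold level, with an unadjusted p of 0.00101 and an adjusted p of 0.137 by edgeR. DESeq2 gave -0.58 with an adjusted p of 0.0287 and called 301 of all genes. Without CBPKIX/KIX homecage library 1, edgeR gave -0.64 with an adjusted p of 0.0243 and called 999 of all genes. mt-Tn had a log2 fold change of -0.26 (adjusted p = 0.220 by edgeR), mt-Ta, which carries alanine, of -0.49 (adjusted p = 0.226), and mt-Te of -0.25 (adjusted p = 0.312). In the other direction, mt-Rnr1 had the lowest p, with a log2 fold change of 0.16 (SE 0.10, adjusted p = 0.544 by edgeR), which was -0.02 after GC-content normalization.

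The 13 mRNAs lay slightly lower in the trained mutants. Of them 12 had a log2 fold change below 0, and the number was 13 with TMM, DESeq2 and GC-content normalization and 11 with total counts. The median was -0.09 beside 0.01 over all genes, of which 52.3% lay above 0. None had an unadjusted p under 0.05, and the groups overlapped for each. mt-Nd1 was at 5471, 5721, 5755 and 5738 CPM in CBPKIX/KIX homecage libraries and at 5011, 5155, 5471 and 5524 CPM after CFC, with a log2 fold change of -0.10 (SE 0.05, adjusted p = 0.440 by edgeR).

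The mutation after CFC (CBPKIX/KIX CFC against WT CFC) gave small differences. With edgeR, 0 of 32 genes had an adjusted p under 0.05 (0.0106% of all genes) and 0 an unadjusted p under 0.05 (2.34%), and DESeq2 gave 0 by both. mt-Tt, which carries threonine, had the lowest p on the higher side, with a log2 fold change of 0.35 (SE 0.25, adjusted p = 1.00 by edgeR). On the lower side it was mt-Tq with -0.24 (SE 0.23, adjusted p = 1.00 by edgeR). For the 7 mRNAs outside the stretch, the log2 fold changes ran from -0.01 to 0.05. Of the 13 mRNAs 9 lay above 0, where 53.4% of all genes did, and after GC-content normalization 4 did. The groups overlapped for all 32 genes tested, where 2.5% of all genes did not overlap. mt-Co1 was at 15871, 16494, 17161 and 18160 CPM in WT and at 16164, 16524, 17400 and 17649 CPM in CBPKIX/KIX CFC libraries.

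In the homecage, the mRNAs of CBPKIX/KIX mice lay slightly above those of WT mice. No gene had an adjusted p under 0.05 with edgeR or DESeq2 (0.0265% of all genes with edgeR). At an unadjusted p under 0.05 there was 1 with edgeR (9.81% of all genes) and 3 with DESeq2. mt-Nd1 (chrM:2751-3707) was at 5069, 5214 and 5247 CPM in WT and at 5471, 5721, 5755 and 5738 CPM in CBPKIX/KIX libraries. Every mutant library lay above every WT library. The log2 fold change was 0.13 (SE 0.06), a 1.1-fold higher level, with an unadjusted p of 0.0347 and an adjusted p of 0.468 by edgeR. mt-Co1 also did not overlap, with 16371, 17064 and 17203 CPM in WT and 17469, 18358, 18359 and 17834 CPM in mutant libraries. These were 2 of the 32 genes tested, against 6.87% of all genes.

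All 13 mRNAs had a log2 fold change above 0, where 48.9% of all genes did, and the count was also 13 with TMM, total counts, DESeq2 and GC-content normalization. It was 11 with the replicate classes as a block. The WT homecage group holds 2 libraries of the class numbered 1 or 2 and 1 of the other, and the CBPKIX/KIX homecage group 2 of each. The class numbered 3 or 4 had the higher medians for the mRNAs outside the stretch. The part of this imbalance in the differences was not tested further. The median was 0.13 over the 13 mRNAs and 0.10 over the 7 outside the stretch, and with the replicate classes as a block it was 0.08 over the 13. On the lower side mt-Ty had a log2 fold change of -0.09 (SE 0.13, adjusted p = 0.883 by edgeR), and it was 0.00096 without CBPKIX/KIX homecage library 4. The rRNAs overlapped, with mt-Rnr1 at 2697, 2789 and 2963 CPM in WT and at 2787, 2827, 2816 and 2363 CPM in CBPKIX/KIX libraries.

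**Figure D5:**
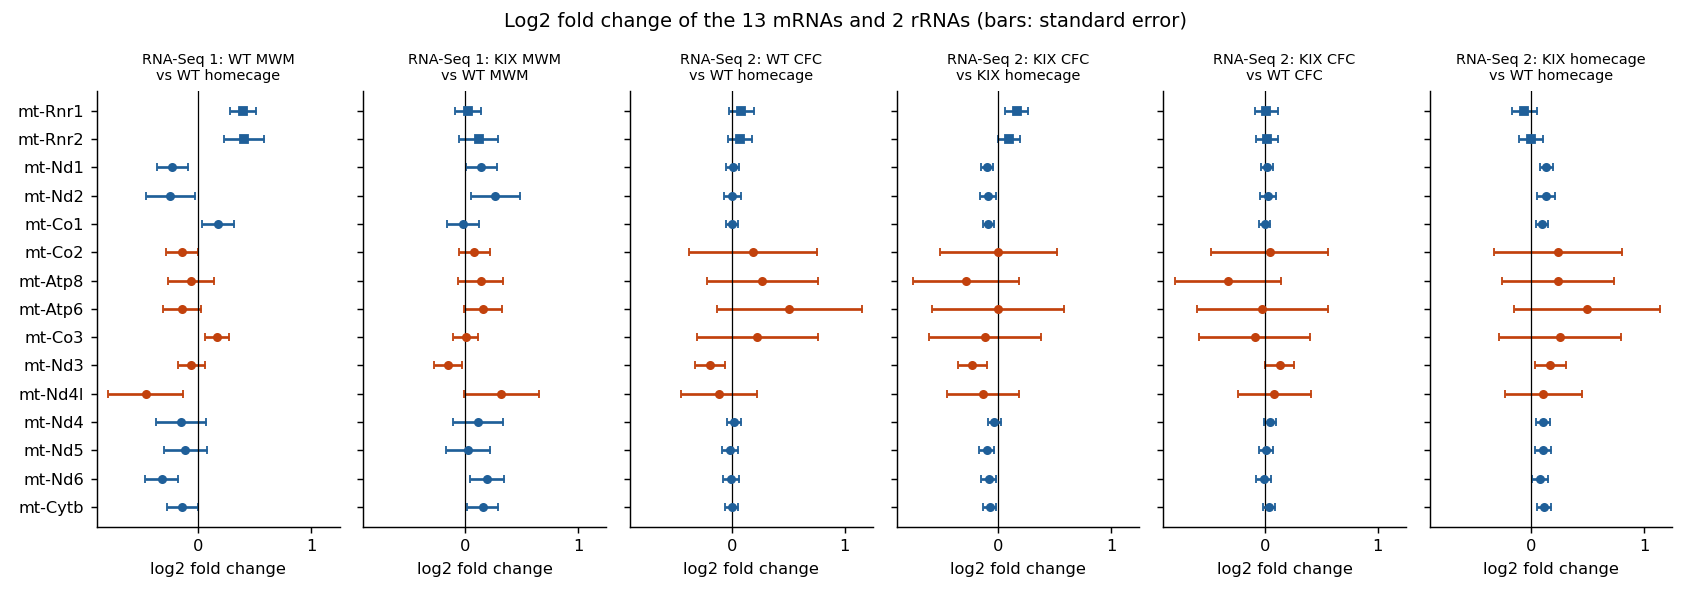
log2 fold change (x axis) with its SE for the mRNAs and rRNAs in the 6 comparisons, with squares for rRNAs and orange for mRNAs wholly inside the stretch copied on chromosome 1. The 2 rRNAs lie at 0.39 and 0.40 in WT MWM against WT homecage (0.08 and -0.14 after GC-content normalization, not drawn), and in RNA-Seq 2 the mRNAs inside the stretch have the widest error bars.

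The differences between these effects were tested as interactions, and none of the mitochondrially encoded genes had an adjusted p under 0.05 with edgeR or DESeq2 (0% of all genes in each with edgeR). For the training effect in CBPKIX/KIX less that in WT mice in RNA-Seq 2, 0 genes had an unadjusted p under 0.05 with either tool (4.79% of all genes with edgeR). All 13 mRNAs lay below 0, where 52.5% of all genes lay above 0, or 12 with the replicate classes as a block and 12 after GC-content normalization. mt-Nd1 had the lowest p among them, with a difference of -0.11 on the log2 scale (SE 0.08, adjusted p = 0.95 by edgeR). On the higher side it was mt-Ty with 0.12 (SE 0.17, adjusted p = 0.971).

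For the interactions with the paradigm, a fit of all 7 groups kept 33 of the 37 genes. The genotype effect after CFC less that after MWM had 4 tRNAs at an unadjusted p under 0.05 (3.83% of all genes), with mt-Tr at 1.95 (SE 0.78, adjusted p = 0.966 by edgeR) and mt-Tq at -1.79 (SE 0.79, adjusted p = 0.966). These tRNAs had at most 8 counts in a library of RNA-Seq 1, so their differences rest on very few counts. DESeq2 gave 2 at an unadjusted p under 0.05. Of the 13 mRNAs, 11 lay below 0 (12 with TMM and 9 after GC-content normalization), where 51.9% of all genes lay above 0, and without WT MWM library 1 only 5 lay below 0. The learning effect after CFC less that after MWM in WT mice had 2 tRNAs at an unadjusted p under 0.05 (7.93% of all genes), with mt-Tm at -2.15 (SE 0.61, unadjusted p = 0.00195, adjusted p = 0.476 by edgeR) and 1 to 12 counts per library in RNA-Seq 1. On the higher side it was mt-Nd6 with 0.32 (SE 0.17, adjusted p = 0.647 by edgeR). Of the 13 mRNAs, 11 lay above 0 (11 with TMM, 10 with DESeq2 and 13 after GC-content normalization), where 59.3% of all genes did, and without WT MWM library 1 the number was 7. DESeq2 gave 5 at an unadjusted p under 0.05.

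The nuclear genes that copy, transcribe and process mitochondrial DNA and RNA were examined beside them. All 37 genes of a list of mitochondrial replication, transcription and RNA processing machinery were tested, and 0 of them had an adjusted p under 0.05 in any of the 6 comparisons or 3 interactions with edgeR. At an unadjusted p under 0.05, 1 lay higher and 1 lower after MWM in WT mice (Mgme1 at 0.39 and Polg2 at -0.51), against 10.9% of all genes in either direction. None did so in WT CFC (2.39% of all genes) or in the genotype comparisons after MWM (5.77%) and CFC (2.34%). In the mutant homecage mice 1 lay higher and 2 lower (9.81% of all genes), and after CFC in the mutant 2 lay higher and 3 lower (13%).

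Polrmt, the mitochondrial RNA polymerase, was at 61.4 ± 12.5 CPM (SD, n = 3) in WT homecage, 52.5 ± 1.85 in WT MWM and 45.8 ± 2.33 in CBPKIX/KIX MWM libraries, and its RNA-Seq 2 group means were 36.4 to 37.6 CPM. Tfam, which packages mitochondrial DNA and starts its transcription, had group means of 15.9, 16.7 and 18.6 CPM in the first experiment and of 37.3 to 38.9 CPM in the other. Lrpprc, which stabilises mitochondrial mRNAs together with Slirp, had means of 68.4, 70.05 and 75.2 CPM in RNA-Seq 1 and from 87.4 to 93.5 CPM in RNA-Seq 2. Its log2 fold change was -0.10 after CFC in the mutant (unadjusted p = 0.0304, adjusted p = 0.326 by edgeR). Slirp was at 0.205 to 0.297 CPM and 2.99 to 3.51 CPM by group mean, and Mtpap, the mitochondrial poly(A) polymerase, at 12.8 to 14.1 and 26.3 to 28.7 CPM.

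Of 28 genes for the translation and assembly of mitochondrially encoded proteins, 27 were tested, and again 0 had an adjusted p under 0.05 in any comparison or interaction with edgeR. At an unadjusted p under 0.05, 2 lay higher and 1 lower in the mutant homecage mice (9.81% of all genes in either direction), 1 higher and 3 lower after CFC in the mutant (13%), and at most 1 did in any other comparison, where 2.34% to 10.9% of all genes did. Cox17, the copper chaperone of complex IV, is named here after its values had been seen. It had the lowest adjusted p of the list, with a log2 fold change of 0.51 after CFC in the mutant (SE 0.10, unadjusted p = 7.67e-05, adjusted p = 0.0898 by edgeR) and -0.31 in the mutant homecage mice (unadjusted p = 0.00837, adjusted p = 0.379). Both comparisons share the CBPKIX/KIX homecage libraries.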

How the data were processed

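Reads had been aligned by the authors with STAR to the mouse genome (mm10/GRCm38 per the labels), handled with SAMtools 1.6 and counted per gene with featureCounts 1.4.4. The deposited values used here are these raw counts, with no normalization by the authors. Strand and multi-mapping settings are not given in the sources used here. Samples were grouped by their labels. The labels do not say whether each library came from a separate mouse, so p-values measure the spread between these libraries. The 30 pairs of libraries of the same group differed by more than sampling noise (chi-square per gene of 2.59 to 81.3).

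Counts were analysed in R 4.3.3 with edgeR 4.0.16: filterByExpr, upper-quartile normalization (CPM here are scaled by it), glmQLFit and glmQLFTest, without the factors of unwanted variation that the study used in its pooled fits, and with Benjamini-Hochberg adjustment over all genes tested (two-sided tests, called at 0.05). The scripts were tested on simulated data. Annotation was GENCODE M21, which matched 51633 of 51826 identifiers. Nuclear copies were found with blastn 2.17.0. Alternatives were DESeq2 1.42.0, other scalings, no filter, GC-content normalization over 10 bins, blocks, pooled fits, RUVr factors and leaving out each library. The GC-content normalization gave each count the value at its rank within its bin, averaged over the 10 bins of that library. The value of a gene with a very high count thus depends on the top genes of all bins.

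Members and gene lists were chosen with earlier results of these data known. All 37 members are accounted for. Fold changes are given for members with an adjusted p under 0.05 and otherwise for the lowest p in each direction, tRNA levels for the 5 highest and 3 lowest by mean count, and machinery levels for Polrmt, Tfam, Lrpprc, Slirp and Mtpap. Other genes were named after their values were seen. Same-numbered libraries of different groups correlated from -0.248 to 0.185 in RNA-Seq 1 (9 pairs) and from -0.140 to 0.523 in RNA-Seq 2 (21 pairs). In RNA-Seq 2 their mean was 0.222, against -0.0745 for the 63 differently numbered pairs. In RNA-Seq 1 the means were -0.0115 and 0.00587. The main fits did not take the numbers as pairs, so in RNA-Seq 2 they leave this structure in the spread. Fits with a replicate block are given below.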

Additional observations from a re-analysis of the deposited data

Results flagged for a closer look

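In the groups of 4 libraries, 81 combinations of gene and group were examined for a library far from the other 3 by Dixon's criterion, and 4 were found. Chance gives about 1 in 20 of such groups, so 4 of 81 is no more than chance would give. mt-Rnr1 was at 2363 CPM in CBPKIX/KIX homecage replicate 4, the lowest of its group, with the other 3 at 2787 to 2827 CPM. The same library had the lowest sum of nuclear-retained and small structured RNAs of RNA-Seq 2 (3750 CPM), and the part of that difference was not tested. mt-Nd1 was at 5471 CPM in CBPKIX/KIX homecage replicate 1, with the others at 5721 to 5755 CPM. In WT CFC replicate 3, mt-Tn was at 27.5 CPM (others 21.4 to 22.2 CPM) and mt-Ty at 6.21 CPM (others 5.02 to 5.16 CPM), the highest of their group.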

How the results depend on the processing

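The number of mitochondrially encoded genes called was 0 in each of the 6 comparisons and 3 interactions under the settings tried, with these exceptions. For WT MWM against WT homecage it was 1 with DESeq2 and 0 to 4 when each library was left out. For CBPKIX/KIX CFC against CBPKIX/KIX homecage it was 1 with DESeq2 and 0 to 1 when each library was left out. The cause of these differences was not tested.

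None of the genes that turned direction had passed the test. In the homecage genotype comparison, mt-Ty ran from -0.16 to 0.00096 on the log2 scale over the fits without 1 library. After CFC in the mutant, mt-Rnr1 was -0.0152 after GC-content normalization and -0.0147 with GC-content normalization and the replicate block together. GC-content normalization also parted the 2 rRNAs, which then lay 1 above and 1 below 0 in each of the 6 comparisons and 3 interactions (as before it only in the homecage genotype comparison), with -0.14 for mt-Rnr2 in WT MWM against WT homecage (0.40 before). In CBPKIX/KIX CFC against WT CFC it left 4 of the 13 mRNAs above 0, against 9. For genes with very high counts its values depend on the top genes of all GC bins, which limits it as a check on their direction. The median of the 13 mRNAs for the learning effect after CFC less that after MWM was 0.24, and it ran from 0.0688 to 0.36 over the fits without 1 library, with the lowest value without WT MWM library 1. Among the other results, 388 values of summary results and 318 of single genes kept their direction and their side of the threshold, or their size within the spread between replicates.

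The replicate block (replicate number as a block) called 0 mitochondrially encoded genes in each comparison, and it lowered the median of the 13 mRNAs in the homecage genotype comparison from 0.13 to 0.08. In RNA-Seq 2, 16 of 21 same-numbered pairs of libraries correlated above 0.1, as a hint from the data and not from the design. When both experiments were fitted together, 0 mitochondrially encoded genes were called with or without RUVr factors. All-gene calls there were 610 with 4 RUVr factors and 4 without for genotype after learning, and 229 with 3 factors and 9 without for learning. When only the 7 mRNAs not wholly inside the copied stretch were counted, an alternative chosen after seeing the data, the median in the homecage genotype comparison was 0.10. Depth limits the low tRNAs, and 3 or 4 libraries a group limit all comparisons.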
